A study of Mus musculus with 12 samples.

Results

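The interleukin-6 (IL-6) family and its STAT3 axis were followed through 10 genes, chosen by symbol from the 44345 genes of the deposited table. The 10 genes are the ligands Il6, Lif, Clcf1 and Cntf, the receptor chains Il6ra, Il6st, Osmr and Lifr, the transcription factor Stat3 and its feedback inhibitor Socs3. All 10 were found in the table. RNA was measured in dorsal root ganglia (DRG, the clusters of sensory neurons beside the spinal cord) at the lumbar levels that feed the sciatic nerve, in C57BL/6 mice aged 6 to 8 weeks. The vehicle group received phosphate-buffered saline by gavage every day for 10 days, and the IPA group received indole-3-propionic acid, an indole made by gut bacteria from tryptophan, in the same saline at 20 mg/kg for the same time. The vehicle crush and IPA crush groups had the same 10 days of gavage, then a crush of the sciatic nerve, and gave their ganglia 3 days later. IPA was continued after the crush, and the labels leave it unclear whether vehicle gavage was. Each of the 4 groups had 3 libraries, and each library held the pooled ganglia of 2 mice, so variation between single mice was not seen. The labels name no transgene or deletion, and give neither sex nor batch.

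Cytokines of this family signal through receptor complexes that share the chain gp130, the product of Il6st. IL-6 binds its own receptor chain, IL-6Rα, before gp130, whereas LIF, CNTF and CLCF1 recruit the LIF receptor to gp130, and oncostatin M recruits OSMR. Janus kinases bound to these chains phosphorylate STAT3, which enters the nucleus and switches on targets such as Socs3, whose product blocks the same receptors. In DRG neurons this axis is known as part of the response to axon injury.

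Values are the deposited reads per million-like values, not divided by gene length, with the mean ± SD over 3 libraries. Changes are log2 differences of value + 0.5 with their standard error (SE) from limma, with p adjusted over 15603 tested genes and 0.05 as the threshold. On this scale the change of a gene with low values is understated. Recovered reads came to 40938034 to 62501969 per library. In intact ganglia the depth differed by treatment without overlap, at 41694916 to 49481144 in vehicle and 51482387 to 56798355 in IPA. In the crushed groups it overlapped, at 40938034 to 58013747 in vehicle crush and 44808587 to 62501969 in IPA crush. The ganglia carried their defining markers: 10 neuron markers summed to 12278 to 14229 per library and none was at 0. Vehicle crush replicate 1 stood apart on the second principal component, which held 8.365% of the variance (23.6 there, against -6.54 to -1.29 in the other crushed libraries), and calls that changed without it are given both ways.

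After the crush, 4 of the 9 tested genes of the axis rose under vehicle and none fell, beside 23.6% of all tested genes that rose and 24.4% that fell. Under IPA 5 rose and 1 fell, beside 21.2% and 22.5% of all tested genes. Il6, Clcf1, Stat3 and Socs3 rose in both settings. Of the 4 receptor chains none passed under vehicle, and under IPA Il6ra rose and Lifr fell. The same 4 genes were the ones whose crushed libraries lay wholly above the intact libraries under vehicle, beside 25.4% of all tested genes, and no gene of the axis lay wholly below, beside 26.0%. Under IPA 5 lay wholly above and 1 wholly below, beside 27.2% and 30.8%. The median change of the 9 genes was 0.35 under vehicle and 0.34 under IPA, beside -0.00 and -0.02 over all tested genes. Cntf was below the minimum of 0.5 in 3 libraries and is described apart. Il6 reached that minimum only in crushed libraries, so it was among the 9 tested genes only through the groups where it is high.

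**Figure D1:**
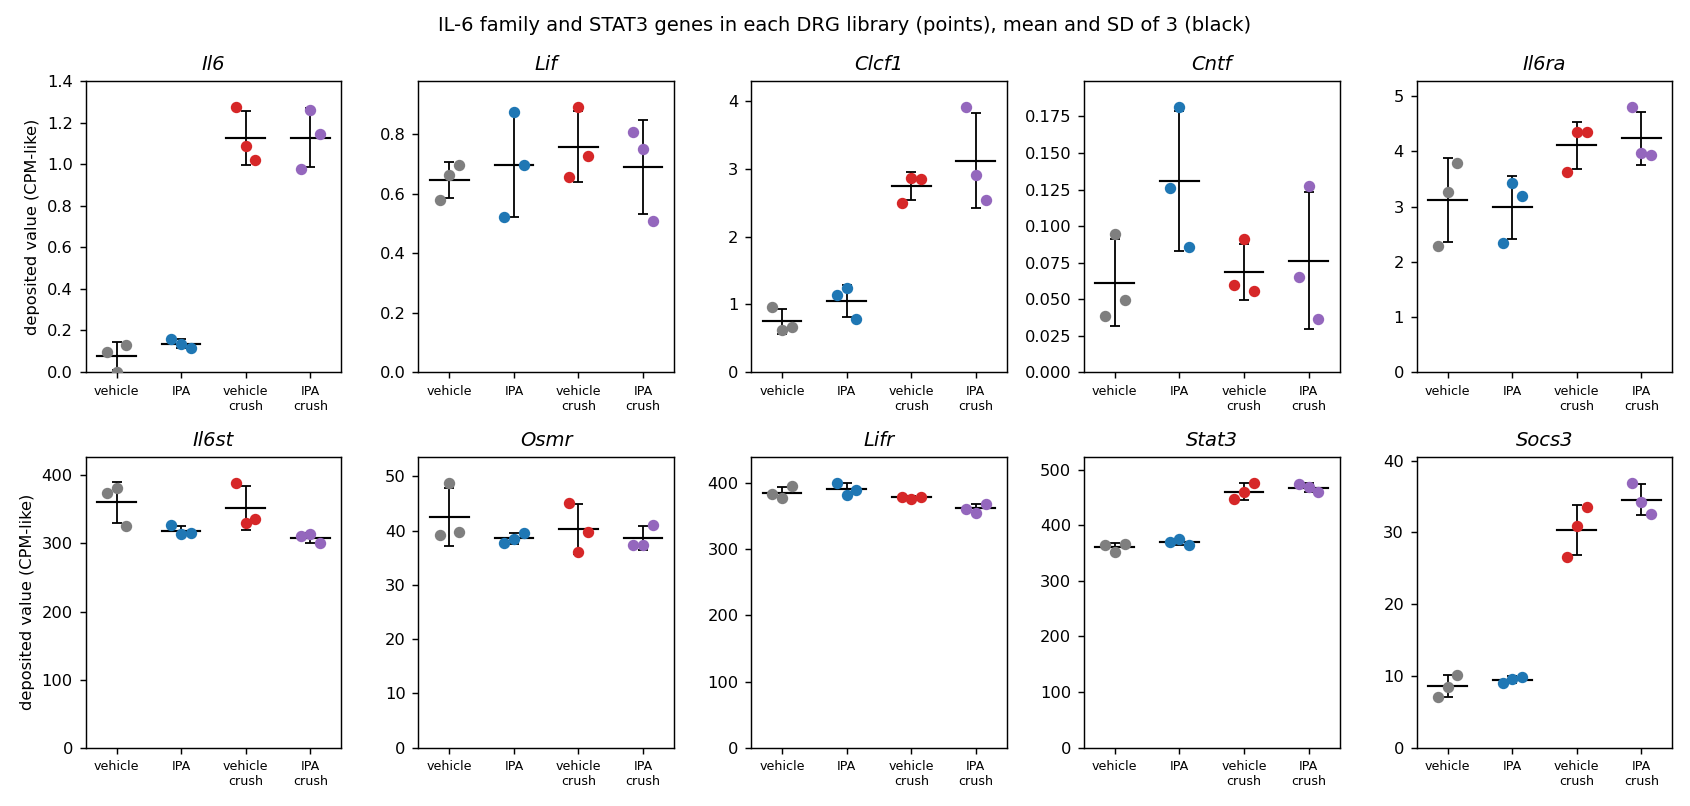
Deposited value of each of the 10 genes (y axis, linear from 0, its own scale per panel) in each library, by group (x axis); each point is 1 library of 2 pooled mice, and black lines give the mean and SD of 3. Il6, Clcf1, Stat3 and Socs3 lie higher in every crushed library than in any intact library, and Lif, Cntf, Il6st, Osmr and Lifr show no such step in both treatments.

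Among the ligands, Il6 encodes the cytokine that gives the family its name (ENSMUSG00000025746, mm10 chr5:30013114-30019981, plus strand). It stood at 0.0963, 0 and 0.132 in the vehicle libraries, which is 5, 0 and 8 reads, and at 0.158, 0.136 and 0.114 in the IPA libraries. In the vehicle crush libraries it stood at 1.27, 1.09 and 1.02, which is 64, 60 and 73 reads, and in the IPA crush libraries at 0.978, 1.26 and 1.15. Every crushed library was far above every intact library, and the 2 treatments overlapped within each injury state. The change was 1.50 ± 0.12 under vehicle (SE, limma adjusted p = 1.94e-07) and 1.35 ± 0.12 under IPA (adjusted p = 6.04e-07). Il6 passed the filter on low values only through its crushed libraries, so its entry into the test depended on the rise itself. As plain ratios of mean values these were 14.8-fold, from 13 reads in all to 197, and 8.31-fold, from 27 reads to 227. The library with 0 reads allows up to 3 reads, a value of 0.0569. On the recovered reads edgeR gave log2 changes of 3.81 (adjusted p = 3.17e-06) and 3.05 (adjusted p = 6.40e-06), so the size of the rise depends on the scale, and its direction was the same on both.

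Clcf1 encodes cardiotrophin-like cytokine factor 1, a ligand of the CNTF receptor (ENSMUSG00000040663, mm10 chr19:4214238-4223490, plus strand). It stood at 0.963, 0.626 and 0.662 in vehicle, 1.13, 1.24 and 0.783 in IPA, 2.51, 2.87 and 2.86 in vehicle crush, and 3.91, 2.92 and 2.55 in IPA crush. The lowest crushed library was above the highest intact library, and the spread was widest in the IPA crush group. The change was 1.38 ± 0.15 under vehicle (limma adjusted p = 5.95e-06) and 1.22 ± 0.15 under IPA (adjusted p = 2.32e-05), or 3.66-fold and 2.97-fold as ratios of means. Of its merged exon bases, 311 (8.17%) are shared with the annotated gene AC109138.7 on the same strand, which is absent from the deposited genes. How the authors' counting treated reads there is not given in the sources used here.

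Lif encodes leukaemia inhibitory factor, a cytokine that acts on sensory and sympathetic neurons (ENSMUSG00000034394, mm10 chr11:4257557-4272514, plus strand). It stood at 0.578, 0.664 and 0.695 in vehicle, 0.520, 0.876 and 0.697 in IPA, 0.656, 0.890 and 0.726 in vehicle crush, and 0.808, 0.751 and 0.509 in IPA crush. All groups overlapped, on 28 to 62 reads per library. The change after the crush was 0.13 (95% interval -0.16 to 0.42, adjusted p = 0.448) under vehicle and -0.01 (-0.30 to 0.28, adjusted p = 0.967) under IPA. These intervals do not reach the fitted changes of Il6 or Clcf1.

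Cntf encodes ciliary neurotrophic factor, which Schwann cells are known to hold (ENSMUSG00000079415, mm10 chr19:12763660-12765632, minus strand). It stood at 0.0385, 0.0948 and 0.0496 in vehicle, 0.126, 0.181 and 0.0854 in IPA, 0.0597, 0.0908 and 0.0558 in vehicle crush, and 0.0652, 0.128 and 0.0364 in IPA crush. These are 2 to 12 reads per library, and the groups overlapped in every comparison. Over the 6 crushed and 6 intact libraries the difference in mean log2 was -0.06, and an exact two-sided permutation test over all 924 splits gave p = 0.394. Of the merged exon bases of Cntf, 78.9% are shared with Zfp91 on the same strand, a gene at 102.9 ± 4.79 in vehicle. How the authors' counting treated reads in shared exons is not given in the sources used here, so the Cntf values may leave out reads of Cntf.

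The receptor chains came next. Il6st encodes gp130, the chain that all these cytokines share (ENSMUSG00000021756, mm10 chr13:112464070-112510086, plus strand). It stood at 374.5, 381.2 and 325.6 in vehicle, 327.0, 314.1 and 315.3 in IPA, 388.5, 329.8 and 335.8 in vehicle crush, and 310.3, 314.3 and 300.6 in IPA crush. Crushed and intact libraries overlapped in both treatments, and the highest value was in the vehicle crush library that stood apart. The change after the crush was -0.04 (95% interval -0.18 to 0.11, limma adjusted p = 0.677) under vehicle and -0.05 (-0.19 to 0.10, adjusted p = 0.599) under IPA. Without that library it was -0.11 under vehicle (adjusted p = 0.126).

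Lifr encodes the receptor chain for LIF, CNTF and CLCF1 (ENSMUSG00000054263, mm10 chr15:7090614-7197489, plus strand). It stood at 384.2, 376.9 and 395.5 in vehicle, 400.1, 382.0 and 390.0 in IPA, 379.8, 376.0 and 379.6 in vehicle crush, and 361.7, 355.6 and 369.0 in IPA crush. The 3 IPA crush libraries were below all other libraries. Lifr did not pass under vehicle (-0.03 ± 0.04, adjusted p = 0.599) and fell under IPA (-0.11 ± 0.04, adjusted p = 0.0334). That call was lost with edgeR on recovered reads (adjusted p = 0.0512), with no filter on low values (0.0536), with median-of-ratios scaling (0.0585), with the replicate number as a block (0.0501), and without IPA replicate 1 (0.135), IPA replicate 3 (0.0807), IPA crush replicate 1 (0.0748) or IPA crush replicate 2 (0.121). The difference between the 2 changes was -0.08 ± 0.05 and did not pass (adjusted p = 0.9997).

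Osmr encodes the oncostatin M receptor chain (ENSMUSG00000022146, mm10 chr15:6813577-6874969, minus strand). It stood at 39.2, 48.8 and 39.8 in vehicle, 37.7, 38.4 and 39.6 in IPA, 45.1, 36.0 and 39.8 in vehicle crush, and 37.4, 37.5 and 41.1 in IPA crush. The groups overlapped throughout. The change after the crush was -0.08 (95% interval -0.27 to 0.11, limma adjusted p = 0.5005) under vehicle and 0.00 (-0.19 to 0.19, adjusted p = 0.987) under IPA. Without vehicle crush replicate 1 it was -0.16 under vehicle (adjusted p = 0.123).

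Il6ra encodes IL-6Rα, the chain that binds IL-6 itself (ENSMUSG00000027947, mm10 chr3:89864059-89913196, minus strand). It stood at 2.29, 3.26 and 3.79 in vehicle, 2.35, 3.43 and 3.19 in IPA, 3.62, 4.36 and 4.35 in vehicle crush, and 4.80, 3.97 and 3.95 in IPA crush. Crushed and intact libraries overlapped under vehicle and not under IPA. The change was 0.37 ± 0.16 under vehicle, which did not pass (adjusted p = 0.0673), and 0.45 ± 0.16 under IPA, which passed (adjusted p = 0.0320). Under vehicle it passed without vehicle replicate 3 (adjusted p = 0.0215) or without vehicle crush replicate 1, the library that stood apart (0.45, adjusted p = 0.0389). Under IPA the call was lost with no filter on low values (adjusted p = 0.0911) and without IPA replicate 1 (0.152), IPA crush replicate 1 (0.117) or IPA crush replicate 2 (0.0517). The 2 changes differed by 0.08 ± 0.22 (adjusted p = 0.9997), so a difference between treatments was not shown.

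Stat3 encodes the transcription factor that carries the signal to the nucleus (ENSMUSG00000004040, mm10 chr11:100885098-100939540, minus strand). It stood at 364.1, 351.6 and 366.8 in vehicle, 369.8, 375.3 and 364.0 in IPA, 446.5, 459.6 and 475.6 in vehicle crush, and 474.5, 469.4 and 459.5 in IPA crush. The crushed libraries lay in a band of their own above the intact libraries, and the spread within each group was small. Stat3 rose by 0.35 ± 0.04 under vehicle (limma adjusted p = 6.99e-06) and 0.34 ± 0.04 under IPA (adjusted p = 1.15e-05), or 1.28-fold and 1.26-fold as ratios of means.

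Socs3 encodes suppressor of cytokine signalling 3, which binds gp130 and the Janus kinases and shuts the pathway down (ENSMUSG00000053113, mm10 chr11:117966079-117970047, minus strand). It stood at 7.11, 8.40 and 10.2 in vehicle, 9.04, 9.54 and 9.92 in IPA, 26.6, 30.9 and 33.6 in vehicle crush, and 36.9, 34.2 and 32.6 in IPA crush. The lowest crushed library stood far above the highest intact library, and the treatments overlapped within each injury state. Socs3 rose by 1.78 ± 0.11 under vehicle (limma adjusted p = 1.69e-08) and 1.81 ± 0.11 under IPA (adjusted p = 1.65e-08), or 3.55-fold and 3.63-fold as ratios of means. Without vehicle crush replicate 1, its lowest crushed library, the rise under vehicle was 1.87. These were the largest changes of the axis on the limma scale.

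**Figure D2:**
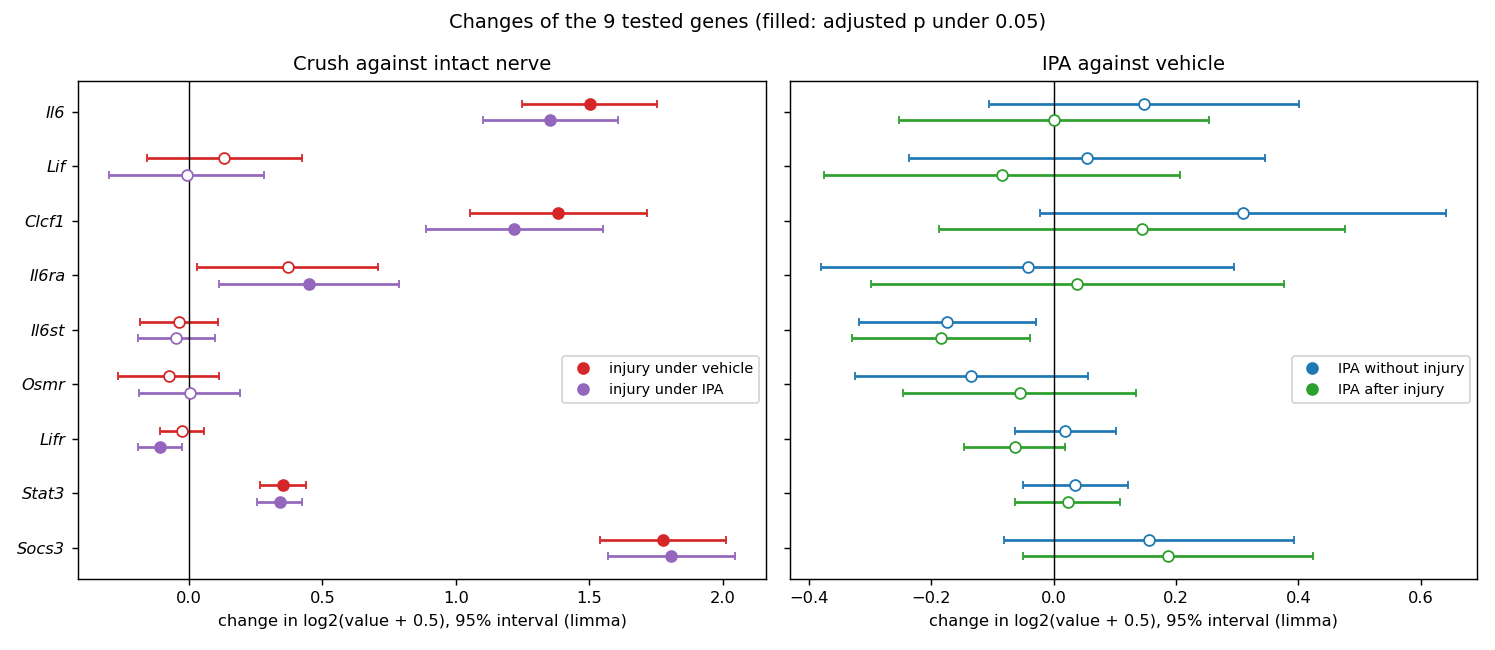
Change of the 9 tested genes in log2(value + 0.5) with its 95% interval from limma (x axis), after the crush (left) and with IPA (right); filled points passed at an adjusted p under 0.05. Il6, Clcf1, Stat3 and Socs3 are filled in both injury comparisons, Il6ra and Lifr only under IPA, and no point is filled for IPA against vehicle.

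Promoter windows of 250 bases before to 50 bases after the RefSeq start (GRCm38.p6, RefSeq) were searched for 3 short motifs, on both strands. TTCNNNGAA, the paired site that STAT proteins are known to bind, was in 8.3% of all 32851 windows, and TGANTCA, the AP-1 site bound by Fos and Jun proteins, was in 7.81%. TGACGTCA, the site of CREB and ATF proteins, was in 1.79%. Windows were matched for 9 of the 10 genes, with 2 windows for Lifr. The first sequences show the ligands whose windows hold the AP-1 letters, and the others show Socs3 and 2 genes of the pathway lists whose windows hold the STAT letters; capitals mark the motif.
Il6 (chr5:30012864-30012882, plus strand): cTGAGTCActtttaaagaa
Lif (chr11:4257329-4257357, plus strand): ccagtcagctgTGACTCAggccatagtgg
Cntf (chr19:12765860-12765882, minus strand): gtatcTGACTCAtttaataagtg
Socs3 (chr11:117969502-117969530, minus strand): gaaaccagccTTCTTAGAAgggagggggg
Il31ra (chr13:112580835-112580863, minus strand): cctgaagggtTTCCAGGAAattgtgataa
Cish (chr9:107296654-107296683, plus strand): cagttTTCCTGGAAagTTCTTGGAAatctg

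Socs3 was the only 1 of the 9 genes with the STAT letters, 154 bases before its RefSeq start. That start lies 681 bases inside the gene span given above, so the printed Socs3 stretch lies within that span. For Il31ra and Cish the RefSeq start lies 13698 and 633 bases inside the annotated gene. All 30 printed Cish bases are exonic in that annotation. The AP-1 letters were in the windows of Il6, Lif, Cntf and Osmr, of which only Il6 passed the test after the crush. TGACGTCA was in no window of the 9 genes. Among the 50 pathway genes with a window, 7 held the STAT letters, and of these Il31ra, Cish, Gfap, Icam1 and Fgl2 rose under vehicle while Hamp and Reg3b were under the filter. Under IPA Icam1 did not pass (0.30, limma adjusted p = 0.226) and the other 4 rose. Of all 58 tested pathway genes, with or without the letters, 35 rose and 6 fell under vehicle, and 34 rose and 6 fell under IPA. Whether genes with the STAT letters rose more often than the rest was not tested. The share of all windows given above counts windows and not genes, so it is no baseline for the count of 7. A match of letters is a description of the window and not a measured binding site.

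Divided by exon length, the genes of the axis spanned a wide range of levels. In vehicle, Stat3 stood at 37.9 ± 0.85 per kilobase, Lifr at 35.8 ± 0.87 and Il6st at 32.5 ± 2.73. Osmr (3.52 ± 0.44 per kilobase) and Socs3 (2.96 ± 0.53) came next and overlapped each other. Il6ra followed at 0.360 ± 0.09, then Clcf1 at 0.197 ± 0.05, Lif at 0.148 ± 0.01, Cntf at 0.0569 ± 0.03 and Il6 at 0.0314 ± 0.03 per kilobase, with Cntf and Il6 overlapping. In vehicle crush the order changed in 3 places: Socs3 (10.5 ± 1.21 per kilobase) stood above Osmr (3.33 ± 0.38) without overlap, Clcf1 (0.721 ± 0.05) above Il6ra (0.476 ± 0.05) without overlap, and Il6 (0.464 ± 0.05) reached the level of Il6ra and stood above Lif and Cntf. Lifr and Il6st overlapped there, and in IPA crush the order of the means was the same. All ligands stayed far below gp130, whose level per kilobase in vehicle crush was 31.7 ± 2.91. In bulk ganglia, fewer cells of a type and less RNA per cell cannot be told apart.

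**Figure D3:**
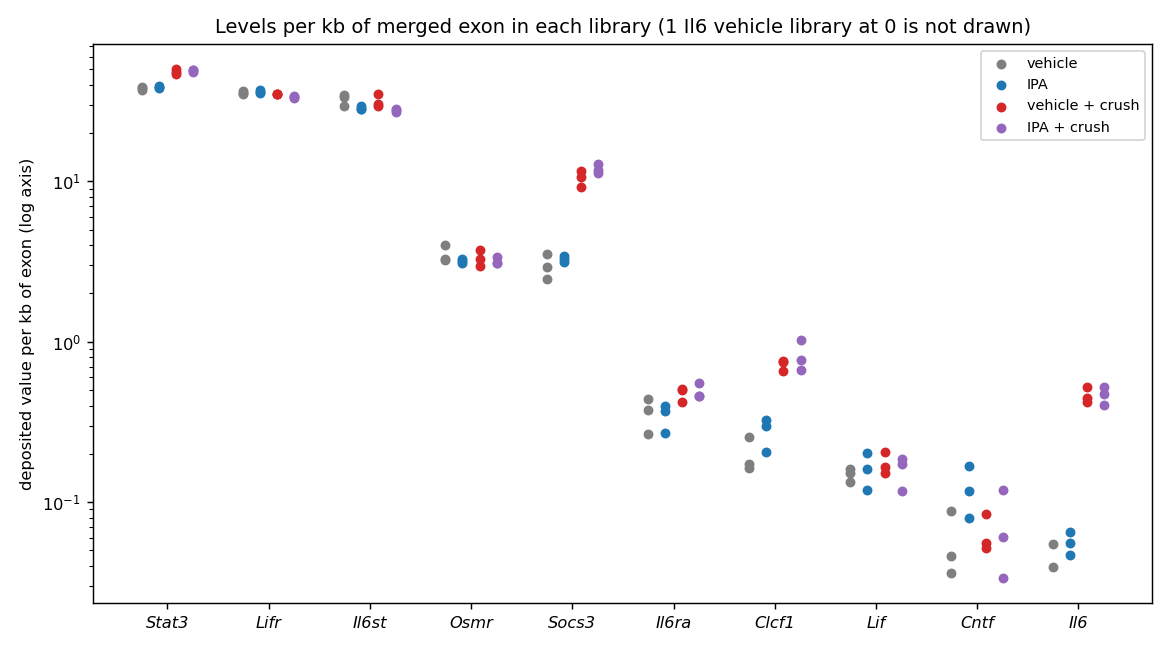
Level of each gene per kilobase of merged exons (y axis, log scale) in each group; points are libraries, and the Il6 library at 0 is not drawn. Stat3, Lifr and Il6st sit near the top in every group, the ligands near the bottom, and Il6, Clcf1 and Socs3 move up in both crush groups.

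The rest of the pathway was read from 67 listed genes, of which 58 were tested. Under vehicle 35 rose and 6 fell after the crush, beside 23.6% and 24.4% of all tested genes, and under IPA 34 rose and 6 fell, beside 21.2% and 22.5%. Without vehicle crush replicate 1, 36 rose and 5 fell under vehicle. Their median change was 0.52 under vehicle and 0.43 under IPA. The lists were chosen with earlier results of these data known. These counts include 7 tested genes that were listed as genes of injured neurons, all of which rose.

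Of 8 other ligands of the family, 2 were tested. Ctf1, the ligand cardiotrophin 1, fell under vehicle from 1.22 ± 0.22 to 0.802 ± 0.18 (-0.40 ± 0.12, adjusted p = 0.0143) and did not pass under IPA (-0.09 ± 0.12). Osm, the ligand of OSMR, was counted with 1 to 11 reads per library, Il11 with 2 to 9 reads, and Il31 with 0 reads in all 12 libraries.

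Of 4 other receptor chains, Il31ra and Il27ra rose. Il31ra, which pairs with OSMR to form the receptor of the itch cytokine IL-31, stood at 19.5, 20.9 and 15.3 in vehicle and at 44.6, 34.6 and 36.0 in vehicle crush. It rose by 1.03 ± 0.11 under vehicle (adjusted p = 2.87e-06) and 1.00 ± 0.11 under IPA, while its partner Osmr did not pass. Il27ra, which pairs with gp130 in the IL-27 receptor, rose by 0.53 ± 0.12 and 0.36 ± 0.12. Il11ra1 and Cntfr, the chains for IL-11 and CNTF, did not pass under vehicle or under IPA.

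Among 9 tested Janus kinases and other STATs, 5 rose under vehicle. Stat5a rose from 5.82 ± 0.54 to 18.0 ± 2.41 (1.55 ± 0.10, adjusted p = 2.66e-08), and Stat5b rose by 0.73 ± 0.06. Stat5a and Stat3 are neighbours on opposite strands that share 72 exon bases, 0.756% of those of Stat3. Jak2, a kinase bound to gp130, rose by 0.38 ± 0.07, Stat2 by 0.30 ± 0.07, and Jak3, named after its value was seen, by 0.56 (adjusted p = 0.0224). Under IPA 4 of these rose (Jak3 did not pass), and Stat6, named after its value was seen, fell (-0.16, adjusted p = 0.0119).

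Among 15 inhibitors of the pathway, 6 rose and 4 fell under vehicle, beside 23.6% and 24.4% of all tested genes. Socs2, a relative of Socs3, rose from 22.3 ± 1.06 to 50.1 ± 1.35 (1.15 ± 0.05, adjusted p = 3.70e-10), Socs1 by 1.25 ± 0.16, Cish by 0.88 ± 0.10, and the phosphatase gene Ptpn1 by 1.13 ± 0.07. Those that fell, named after their values were seen, were Socs5 (-0.41), Socs7 (-0.28), Ptpn11 (-0.24) and Pias1 (-0.21). Under IPA 5 rose and 3 fell, and Pias1 did not pass.

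Of 21 tested textbook targets of STAT3, 14 rose and 1 fell under vehicle. Timp1, an inhibitor of matrix proteases, rose from 0.974 ± 0.15 to 10.1 ± 0.65 (2.85 ± 0.15, adjusted p = 2.97e-09). Bcl3, a co-factor of NF-κB, rose by 1.21 ± 0.11, the kinase gene Pim3 by 0.72 ± 0.08, and the survival gene Mcl1 by 0.41 ± 0.05. Vegfa, named after its value was seen, fell by 0.42. Under IPA 15 rose and 1 fell. All 7 tested injury genes of sensory neurons rose in both settings, beside 23.6% of all tested genes under vehicle and 21.2% under IPA. Their median change was 5.02 under vehicle and 5.08 under IPA. They were listed as genes of injured neurons, so their rise is no test of the axis. Vip, named after its value was seen, stood at 0.0293 in vehicle and 0.0444 in IPA. It passed the filter on low values only through its crushed libraries, and Reg3b was under that filter.

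**Figure D4:**
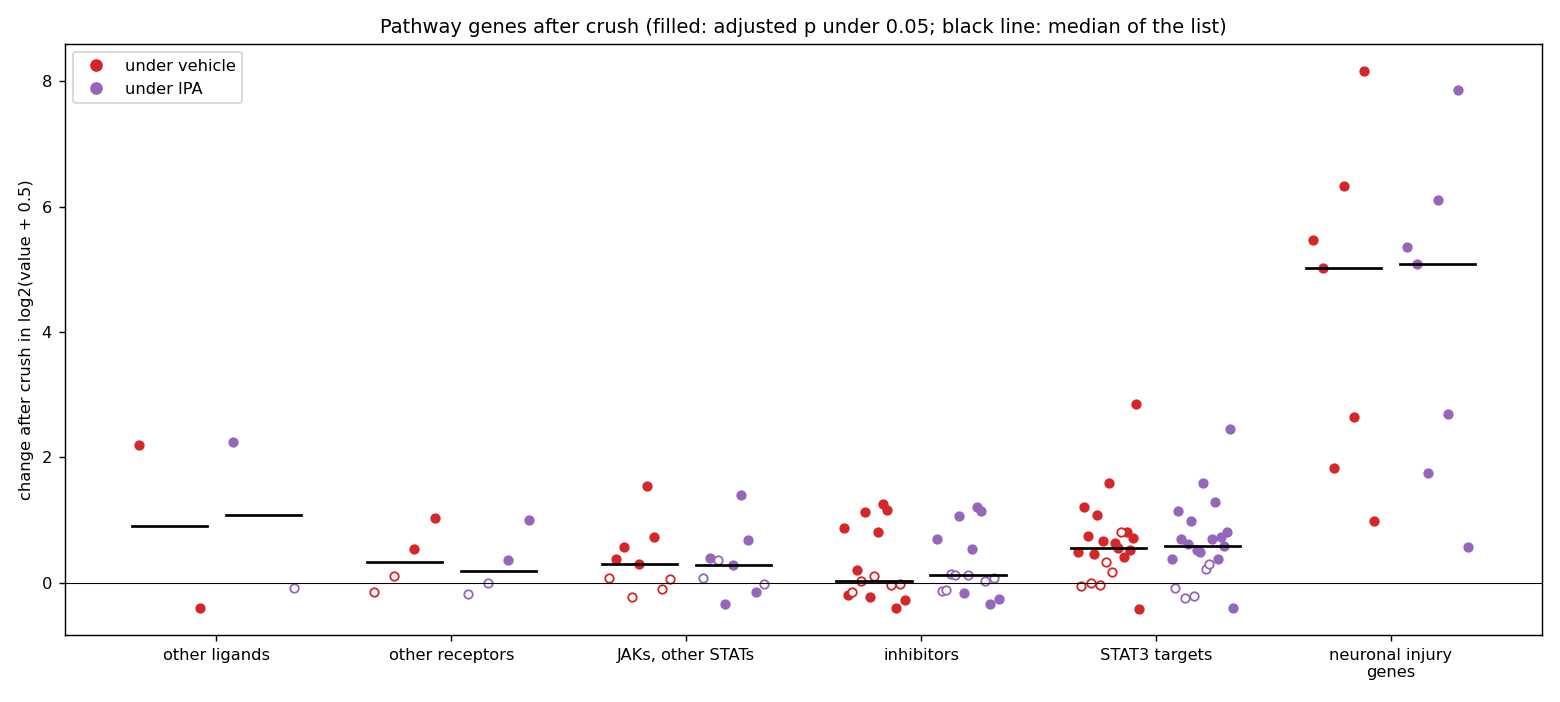
Change of each tested pathway gene after the crush in log2(value + 0.5) (limma), by list; filled points passed at an adjusted p under 0.05, and black lines are list medians. The targets of STAT3 and the injury genes of sensory neurons lie mostly above 0, and the inhibitors lie on both sides of it.

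Cell type markers moved with part of this. The summed level of 9 macrophage markers ran from 62.5 to 75.8 in vehicle libraries and from 58.8 to 87.5 in IPA libraries. It ran from 188.9 to 204.8 in vehicle crush libraries and from 173.1 to 219.7 in IPA crush libraries. All 9 rose under vehicle and 8 under IPA, and no marker was at 0 in any group as a whole. Csf1r, the receptor that macrophages need, stood at 11.0 ± 1.28 in vehicle and 29.0 ± 1.77 in vehicle crush. The neutrophil markers summed to 9.63 to 29.7 in vehicle and 25.7 to 46.7 in vehicle crush, with 1 of 7 higher. Under IPA they summed to 11.1 to 20.1 without and 21.2 to 77.9 after the crush, with 4 of 7 higher. The sums of 8 Schwann cell markers were 5027 to 5690 in vehicle and 4779 to 5411 in vehicle crush, and those of 8 satellite glia markers 2489 to 2999 and 2884 to 3338. Of the 10 neuron markers 2 rose and 6 fell under vehicle, of 6 fibroblast markers 3 rose, of 6 endothelial markers 1 rose, and of 6 skeletal muscle markers none passed, beside 23.6% of all tested genes that rose and 24.4% that fell. The part of these cell types in the rises of Il6, Clcf1, Stat3 and Socs3 was not tested.

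**Figure D5:**
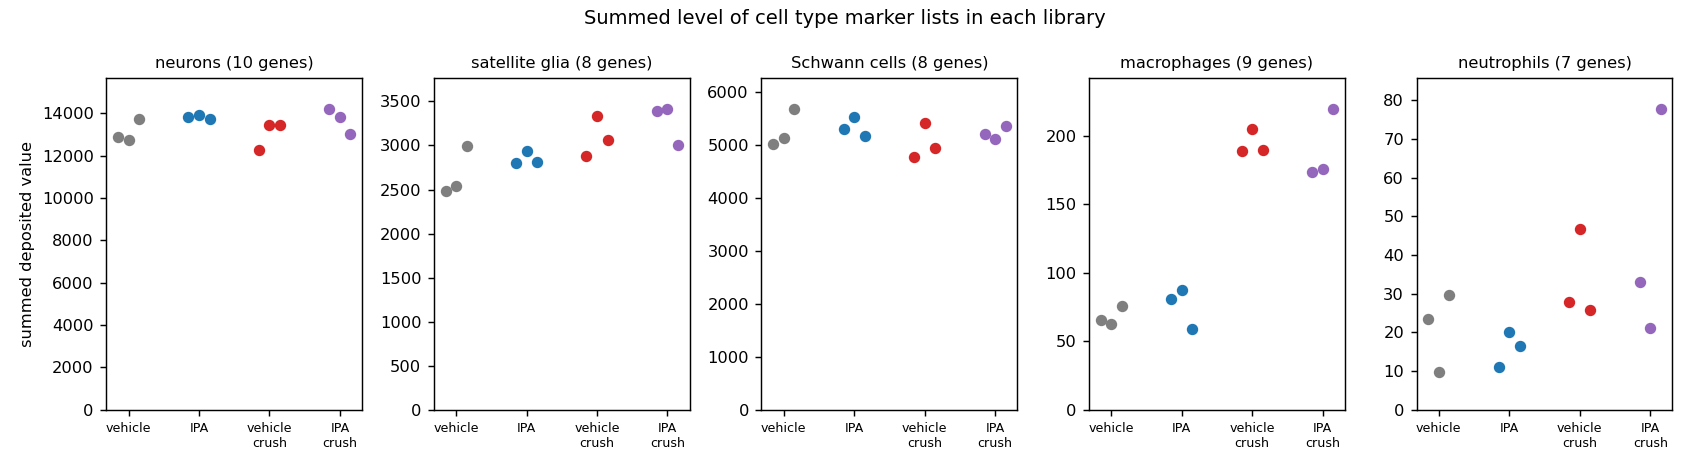
Summed deposited value of each marker list (y axis, linear from 0) in each library, by group (x axis). The macrophage sums are 173.1 to 219.7 in the crushed libraries and 58.8 to 87.5 in the intact libraries, and the neuron and Schwann cell sums overlap between groups.

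Genes with the most similar pattern were sought for each gene of the axis that passed after the crush, among 15602 candidates over the 12 libraries. The measure was the root mean square difference of log2(value + 0.5) after each gene's mean was subtracted. On this scale the change of a gene with low values is understated. For Socs3 the closest were Gap43 (0.10), a growth cone protein gene that stood at 164.4 in vehicle and 581.0 in vehicle crush, and Tpbg (0.12). For Il6 they were Lrrtm3 (0.11) and Tgif1 (0.11), and for Clcf1 Nnat (0.14) and Bcl3 (0.14), the last also among the STAT3 targets. For Stat3 they were Psmc4 (0.03) and Ap2m1 (0.03), for Il6ra Sdf2l1 (0.10) and Rhno1 (0.12), and for Lifr Stau1 (0.02) and Fbxo7 (0.03). From vehicle to vehicle crush the mean of Il6 went from 0.0762 to 1.13. That of Lrrtm3 went from 7.35 to 21.3, and that of Tgif1 from 2.64 to 8.13. Socs3 went from 8.56 to 30.4, and Tpbg from 0.598 to 3.61. These matches hold on the log2(value + 0.5) scale and do not mean equal ratios of means.

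IPA against vehicle gave no call for any gene of the axis, with or without injury. In the whole table limma called 0 of 15603 genes in either comparison, edgeR 0 and DESeq2 3 without and 15 after injury, while 1902 and 1258 genes had an unadjusted p under 0.05. Il6st was the only 1 of the 9 genes with an unadjusted p under 0.05, in both comparisons, beside 12.2% and 8.06% of all tested genes. Without injury its change was -0.17 (95% interval -0.32 to -0.03, limma adjusted p = 0.408), with the means at 360.4 ± 30.3 and 318.8 ± 7.12. After injury it was -0.18 (-0.33 to -0.04, adjusted p = 0.581), with the means at 351.4 ± 32.3 and 308.4 ± 7.06. The 2 comparisons use different libraries. Without vehicle crush replicate 1 the second value was -0.11 (adjusted p = 0.878).

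No gene of the axis had groups that did not overlap without injury, beside 25.2% of all tested genes. After injury Il6st and Lifr did, both lower with IPA, beside 11.4% of all tested genes in either direction and 5.58% lower. For Lifr the change was -0.06 (95% interval -0.15 to 0.02, limma adjusted p = 0.668). For Socs3 the changes with IPA were 0.16 (-0.08 to 0.39) without and 0.19 (-0.05 to 0.42) after injury, the latter 0.10 without vehicle crush replicate 1, and for Stat3 0.04 (-0.05 to 0.12) and 0.02 (-0.06 to 0.11). For Clcf1 they were 0.31 (-0.02 to 0.64) and 0.14 (-0.19 to 0.48), and for Il6 0.15 (-0.11 to 0.40) and 0.00 (-0.25 to 0.25). Intervals for Lif, Il6ra and Osmr also held 0 in both comparisons, that of Il6ra after injury running from -0.30 to 0.38. Without vehicle crush replicate 1 the changes after injury were 0.09 for Clcf1 and 0.03 for Osmr, against -0.06 for Osmr with it. A missed threshold does not show that IPA left these genes alike.

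The test of whether IPA altered the response to the crush gave no call among the 9 genes. The differences between the changes under IPA and under vehicle ran from -0.17 for Clcf1 (95% interval -0.63 to 0.30) to 0.08 for Il6ra (-0.40 to 0.56), each with a limma adjusted p of 0.9997. For Stat3 the difference was -0.01 (-0.13 to 0.11), for Socs3 0.03 (-0.30 to 0.37), and for Il6 -0.15 (-0.51 to 0.21). Over the whole table limma and edgeR called 0 genes and DESeq2 3, and 327 genes, 2.10% of those tested, had an unadjusted p under 0.05, none of them in the axis.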

How the data were processed

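Directional libraries of poly(A) RNA were sequenced on an Illumina instrument, per the labels' protocols. Tools named in the submitters' processing notes are FastQC 0.10.1, R 3.5.0, STAR 2.7.0, the packages limma 3.38.3 and edgeR 3.24.3, and the build mm10; which program counted reads, and on which annotation, is not stated there. The table that the authors deposited has FPKM in its name, but its values are CPM-like: within 1e-06 they are whole multiples of 1 step per library, with no length divided out. The design assumed FPKM and its log-scale test was kept. Columns sum to between 803444 and 818767, and 1 read is worth 0.01304 to 0.01989. The table held 0 columns of no sample. Floors from reads cover counting error only.

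The scale was log2(value + 0.5). Kept were the 15603 genes that reached 0.5 in 3 or more of the 12 libraries. A single limma-trend model (package version 3.58.1, under R 4.3.3, with 8 residual degrees of freedom, Benjamini-Hochberg adjustment) gave every injury and IPA contrast and the interaction, after it was tested on simulated data. For genes below the filter an exact permutation test was used, since 3 against 3 libraries cannot go below 0.1. The labels call the libraries of a group biological triplicates, each a pool of its own.

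The genes and lists were chosen with earlier results of these data known. Named are the 10 genes of the axis, up to 4 of each pathway list with the smallest p among those passing after the crush, up to 3 of each marker list with the highest mean, and the 2 closest in pattern to each gene of the axis that passed; others are marked, and some listed genes are not reported here. The alternatives were another pseudocount (0.1 or 1), dropping the filter or raising it to 1, scaling by median of ratios or TMM, the replicate number as a block, 0.1 as threshold, a fit to the compared libraries alone, and leaving out single libraries. After the data had been seen, edgeR 4.0.16 (quasi-likelihood) and then DESeq2 1.42.0 were added on recovered reads. Gene positions are from GENCODE M21 (mm10) and promoter sequence is from RefSeq (GRCm38.p6).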

Additional observations from a re-analysis of the deposited data

How the results depend on the processing

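Il6, Clcf1, Stat3 and Socs3 kept their direction and their call in both injury comparisons under every alternative run. The count of genes of the axis that fell under IPA went from 1 (Lifr) to 0 with no filter on low values, with median-of-ratios scaling, with the replicate block and with edgeR on recovered reads, and ran from 0 to 1 when libraries were left out in turn. Over all tested genes, IPA after injury gave 0 to 1 calls when libraries were left out. DESeq2 called 3 genes for IPA without injury, 15 after injury and 3 in the interaction, where limma called 0. Of 152 alternative values for genes of the axis after injury under vehicle, 149 stayed on their side of the threshold and 3, all of Il6ra, passed. Under IPA 140 of 152 stayed and 12, of Il6ra and Lifr, were lost. Among values that passed no threshold, 4 and 8 changed sign in these comparisons, and 3, 9 and 19 in the IPA comparisons and the interaction. Same-numbered replicates correlated at -0.252 to 0.205 in their deviations. Only vehicle replicate 1, set against the vehicle crush libraries, correlated best with its own number. With 3 libraries per group this cannot show whether same-numbered libraries share a batch. The replicate block changed no other call of the axis than Lifr. Cntf (2 to 12 reads) and Il6 in intact ganglia (0 to 10 reads) are limited by depth.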
